A study of Homo sapiens with 8 samples.

Results

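GC-rich promoters without a peak were examined in ATAC-seq data of HepG2 cells, an established human liver cancer line of hepatocyte character with the genotype WT. ATAC-seq uses the Tn5 transposase to place sequencing adapters in open chromatin, and a peak is a stretch in which more fragments start than in the surrounding background. The study had 8 bulk libraries, fixed with 0.1, 0.5, 1 or 5% formaldehyde (FA) and then cryopreserved or flash-frozen, and asked how these steps affect data quality. The values below come from the peak list of 1 library, fixed with 0.1% FA and cryopreserved, with no replicate and no comparison between conditions. A promoter was called GC-rich when the 500 bp to either side of the canonical transcription start site (TSS) of a protein-coding gene of GENCODE 44 on chromosomes 1 to 22 held at least 60% G or C in hg38. The members were chosen by the absence of any peak in the 1000 bp to either side of every annotated start of the gene. They numbered 1971 of 10671 GC-rich promoters (18.5%), and the other 8700 had a peak. Of all 19111 protein-coding promoters on these chromosomes, 6100 (31.9%) lacked a peak.

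Most human promoters of high GC content overlap a CpG island, a stretch in which the dinucleotide CpG has kept a frequency near that expected from its bases, while in the rest of the genome it is depleted by mutation of methylated cytosines. Islands of broadly expressed genes are usually unmethylated and free of nucleosomes. Islands of developmental genes are often held by Polycomb proteins in cells that do not use the gene, and some islands become methylated in tumours and cell lines.

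The peak list held 60628 peaks, 59106 of them on chromosomes 1 to 22, with a lowest -log10 q of 3.01. It gives no read counts, so depth is unknown, and a promoter without a peak is one at which no peak was called and not one shown to be closed. Of 15 hepatocyte marker genes, 13 had a peak at a start, APOA1, APOB, HNF4A and TTR among them, whereas ALB and AFP had none. Of 12 marker genes of blood, endothelium, mesenchyme and neurons, 4 had a peak. Intervals in brackets are exact binomial intervals at the 95% level, which cover counting error over genes only. Neighbouring and related genes are not independent, so no test was made.

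As examples of their sequence, RefSeq promoters are given here for 1 member from each of 5 gene lists, with every CpG in capitals. In each list this was the member farthest from a peak with a RefSeq entry. The stretches run from 250 bases before to 50 after the RefSeq start (GRCh38.p14, 5′ to 3′ on the strand of the gene). RefSeq promoters were matched by symbol for 1380 of the 1971 members. IRX1 (a homeobox patterning factor, chr5:3595582-3595881, plus strand), KCNK1 (a potassium leak channel, chr1:233613856-233614155, plus strand), PIWIL1 (a PIWI protein of the male germ line, chr12:130337637-130337936, plus strand) and RBM20 (a splicing factor of heart muscle, chr10:110644086-110644385, plus strand) are rich in CpG, while KRT79 (an epithelial keratin, chr12:52834262-52834561, minus strand) is GC-rich with few CpG.
IRX1: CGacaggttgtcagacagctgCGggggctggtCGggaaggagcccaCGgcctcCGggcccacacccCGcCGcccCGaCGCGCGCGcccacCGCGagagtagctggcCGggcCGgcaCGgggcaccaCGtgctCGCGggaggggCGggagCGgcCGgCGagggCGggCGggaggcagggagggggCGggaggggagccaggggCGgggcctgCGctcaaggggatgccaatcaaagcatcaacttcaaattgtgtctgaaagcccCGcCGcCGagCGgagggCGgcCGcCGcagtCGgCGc
KCNK1: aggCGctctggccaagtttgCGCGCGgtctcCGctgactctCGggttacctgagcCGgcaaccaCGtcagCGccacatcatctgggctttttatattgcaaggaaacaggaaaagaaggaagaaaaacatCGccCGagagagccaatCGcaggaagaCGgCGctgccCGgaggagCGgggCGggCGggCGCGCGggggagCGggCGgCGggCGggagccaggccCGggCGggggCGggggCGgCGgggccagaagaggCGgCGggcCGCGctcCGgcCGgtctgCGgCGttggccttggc
PIWIL1: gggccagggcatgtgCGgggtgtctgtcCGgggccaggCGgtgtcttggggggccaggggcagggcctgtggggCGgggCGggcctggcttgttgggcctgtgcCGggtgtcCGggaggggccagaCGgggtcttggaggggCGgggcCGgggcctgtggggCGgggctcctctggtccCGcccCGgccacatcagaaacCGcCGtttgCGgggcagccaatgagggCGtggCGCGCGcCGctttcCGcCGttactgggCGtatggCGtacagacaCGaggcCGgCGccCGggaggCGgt
RBM20: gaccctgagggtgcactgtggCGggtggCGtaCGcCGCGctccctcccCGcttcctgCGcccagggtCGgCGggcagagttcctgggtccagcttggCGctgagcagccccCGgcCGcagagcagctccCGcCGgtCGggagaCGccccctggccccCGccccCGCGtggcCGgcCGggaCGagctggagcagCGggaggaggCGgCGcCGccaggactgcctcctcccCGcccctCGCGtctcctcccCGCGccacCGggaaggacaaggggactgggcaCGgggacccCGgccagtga
KRT79: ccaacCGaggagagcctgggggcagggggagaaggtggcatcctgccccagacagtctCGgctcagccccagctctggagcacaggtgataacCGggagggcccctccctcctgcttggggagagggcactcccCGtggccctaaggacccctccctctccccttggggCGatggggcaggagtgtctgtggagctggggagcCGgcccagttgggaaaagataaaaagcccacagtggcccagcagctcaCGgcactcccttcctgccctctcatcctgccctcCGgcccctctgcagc
Within these 300 bases, IRX1 and KCNK1 had 38 CpG each, RBM20 had 34, PIWIL1 had 30 and KRT79 had 8. The nearest peak lay 271648 bp from the TSS of IRX1, 319282 bp from that of KCNK1, 292362 bp from that of PIWIL1, 31117 bp from that of KRT79 and 27844 bp from that of RBM20. For comparison, MRPS9 (a protein of the mitochondrial ribosome, chr2:105037819-105038118, plus strand) and TMEM217 (a membrane protein, chr6:37258095-37258394, minus strand) were among the GC-rich promoters with the highest fold enrichment at a start, 42.6 and 39.5.
MRPS9: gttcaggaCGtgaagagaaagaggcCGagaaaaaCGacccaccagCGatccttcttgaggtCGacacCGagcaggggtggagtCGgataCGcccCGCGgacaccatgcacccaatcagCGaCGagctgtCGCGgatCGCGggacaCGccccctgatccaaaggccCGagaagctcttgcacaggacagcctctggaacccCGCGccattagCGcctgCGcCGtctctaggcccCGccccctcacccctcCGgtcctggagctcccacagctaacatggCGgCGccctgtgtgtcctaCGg
TMEM217: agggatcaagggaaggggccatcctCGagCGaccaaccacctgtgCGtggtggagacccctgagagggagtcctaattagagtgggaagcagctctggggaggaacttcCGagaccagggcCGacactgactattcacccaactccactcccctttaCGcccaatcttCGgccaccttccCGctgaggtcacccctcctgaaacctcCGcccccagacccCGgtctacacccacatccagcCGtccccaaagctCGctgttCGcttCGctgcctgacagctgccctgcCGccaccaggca
MRPS9 had 28 CpG and TMEM217 had 15, fewer than 4 of the 5 promoters without a peak. The number of CpG therefore did not separate these examples, since KRT79 had the fewest. GC content within the 300 bases was higher in each of the 5 promoters without a peak than in MRPS9 and TMEM217. Another promoter among those of highest fold, not printed here, had 69.0% GC, above the 67.3% of KRT79. GC content therefore did not separate the examples either. Over all GC-rich promoters, the median GC content around the TSS was 66.1% without a peak and 67.2% with one. These few examples do not stand for all GC-rich promoters. KCNK1 held a TATA match, and IRX1, KCNK1, PIWIL1, MRPS9 and TMEM217 each held a CCAAT match.

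Promoters without a peak held fewer CpG than GC-rich promoters with a peak, at almost the same GC content. The median ratio of observed to expected CpG was 0.744 (quartiles 0.584 and 0.845) without a peak and 0.816 (0.732 and 0.888) with a peak. The median GC content was 66.1% without a peak and 67.2% with a peak, and the median number of CpG per 100 bp was 7.99 without and 9.09 with. The quartile ranges overlapped widely, and the gap was largest at the lower quartile.

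The lowest ratios belonged to promoters that are GC-rich without being CpG islands. Of 1178 GC-rich promoters with a CpG ratio under 0.6, the usual limit of an island, 532 lacked a peak (45.2%, 42.3 to 48.1%). Of 9493 with a ratio of 0.6 or more, 1439 lacked a peak (15.2%, 14.4 to 15.9%). The lack of a peak was thus more frequent among CpG-poor promoters, although the CpG-rich ones made up 73.0% of the members. Promoters with a ratio under 0.3 lacked a peak in 50.4% of cases (45.0 to 55.8%), and those with a ratio of 0.9 or more in 11% (9.72 to 12.4%). The share also fell within the range of islands, from 23.3% at a ratio of 0.6 to 0.7 to 13.7% at 0.8 to 0.9.

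The difference was present within bands of GC content. Between 60 and 65% GC, 47.0% of CpG-poor and 14.1% of CpG-rich promoters lacked a peak. Between 65 and 70% GC the shares were 40.9% and 14.9%, and from 70% upwards they were 39.1% of only 46 CpG-poor promoters and 16.4% of CpG-rich ones. GC content itself changed the share little, with 21.1% without a peak between 60 and 65% GC, 16.1% between 70 and 75% and 22.2% (15.1 to 30.8%) of 117 promoters at 80% or more. The 5 members of highest GC content were CPLX1 at 84.5%, which encodes a complexin of synaptic vesicles, the calcium channel gene CACNA1H at 84.1%, TRAF3 at 83.3%, which encodes an adaptor of TNF receptors, the synaptic scaffold gene CASKIN1 at 83.0% and WNT4 at 83.0%.

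The number of annotated starts moved with the share as well, and it bears on the rule, since each start adds a window in which a peak can fall. Of genes with 1 annotated start, 41.2% (38.1 to 44.3%) lacked a peak, against 5.52% (4.4 to 6.84%) of genes with 16 or more. The median was 4 starts without a peak and 7 with a peak. Among the genes with a peak, 491 had it only at a start more than 1000 bp from the canonical TSS, and with the canonical TSS alone 23.1% of GC-rich promoters lacked a peak. The part of annotation depth in the shares given here was not tested.

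**Figure D1:**
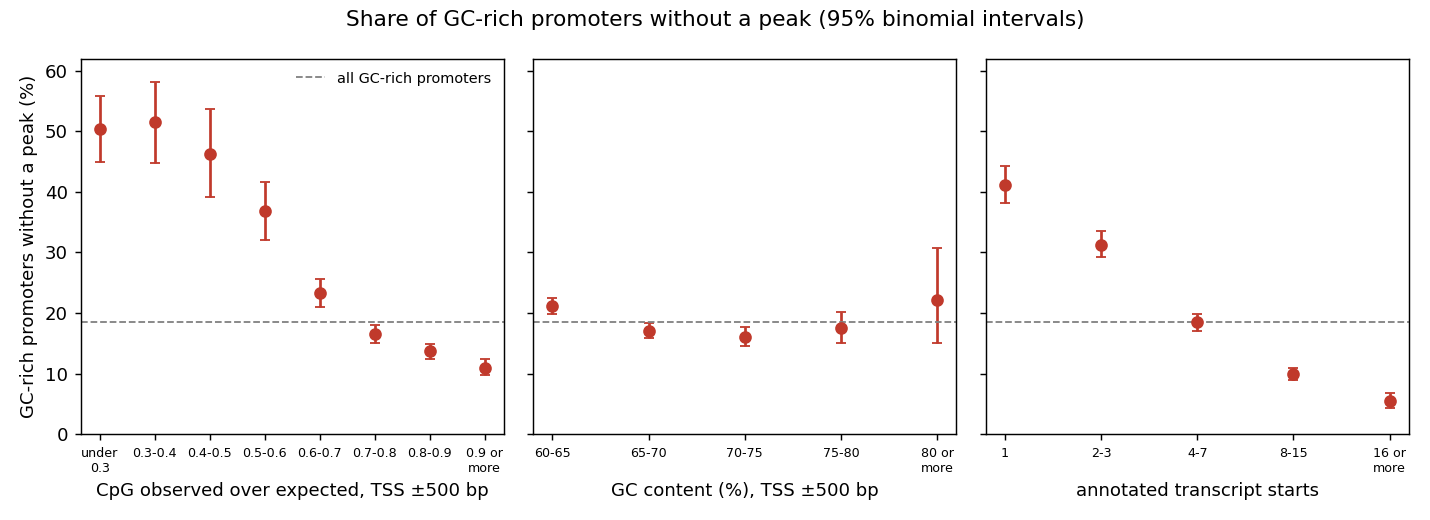
Share of GC-rich promoters without a peak (y axis, %) in bins of the CpG ratio, of GC content and of the number of annotated starts (x axes), with 95% binomial intervals; the dashed line marks 18.5%, the share of all GC-rich promoters. The share was 50.4% in the lowest CpG bin and 11% in the highest, varied between 16.1 and 22.2% over GC content, and was 41.2% at 1 start and 5.52% at 16 or more.

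Sequence that occurs more than once in the genome was more frequent among the members. Reads that fit several places were not kept by the authors, which can leave a repeated promoter without a peak. Of the 50 bp words of each promoter, over 10% occurred more than once in hg38 in 161 members (8.17%, 7.0 to 9.47%) and in 303 promoters with a peak (3.48%, 3.11 to 3.89%). The share was 13.9% among CpG-poor members. In BOLA2, a gene of iron-sulfur handling with a near-identical copy, and in the histone gene H3C14, 100% of words were repeated, so the lack of a peak there is uncertain. Without all promoters of this kind, 1810 GC-rich promoters lacked a peak (17.7%).

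Motifs of factors that bind promoters of broadly expressed genes were less frequent in the members. The 250 bp before to 50 bp after the canonical TSS were searched on both strands. The ETS motif CCGGAAGT was found in 18 members (0.913%, 0.542 to 1.44%), in 7.36% (6.82 to 7.93%) of GC-rich promoters with a peak and in 6.26% of all protein-coding promoters. The NRF1 motif GCATGCGC was found in 1.67% of promoters without a peak, 5.78% with a peak and 4.2% of all. NRF1 and many ETS factors act on genes of respiration, translation and other functions that every cell uses. The YY1 motif AAGATGGC was found in 1.07% without a peak, 4.64% with a peak and 4.05% of all. The ZBTB33 motif CTCGCGAG was found in 0.71% without a peak, 2.28% with a peak and 1.47% of all.

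The GC box, the CCAAT box, the cyclic AMP response element and the E-box were less frequent in the members too. The SP/KLF motif GGGCGG, the GC box, was found in 76.5% (74.6 to 78.4%) of promoters without a peak, 86.0% (85.3 to 86.7%) with a peak and 61.7% of all. The CCAAT box bound by NFY was found in 24.7% without a peak, 32.9% with a peak and 35.7% of all. The cyclic AMP response element TGACGTCA, bound by CREB, was found in 1.78% without a peak, 3.3% with a peak and 2.72% of all. The E-box CACGTG was found in 8.27% (7.09 to 9.57%) without a peak, 10.5% (9.82 to 11.1%) with a peak and 8.69% of all. For each of these 4 motifs the intervals without and with a peak were apart.

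The TATA motif TATAAA ran the other way, counted on either strand and at any place in the searched stretch. It was found in 7.2% (6.1 to 8.44%) of promoters without a peak and 3.16% (2.8 to 3.55%) with a peak, beside 9.74% of all protein-coding promoters. The REST motif TCAGCACC, part of the element through which the repressor REST acts on neuronal genes, was found in 2.03% (1.45 to 2.75%) without a peak, 1.43% (1.19 to 1.7%) with a peak and 1.58% of all, and the intervals overlapped. The CTCF motif AGGGGGC was found in 27.9% without a peak, 25.9% with a peak and 18.8% of all, again with overlapping intervals. The motif CAAAGTCCA of the liver factor HNF4 was rare, found in 0.0507% without a peak, 0.149% with a peak and 0.335% of all.

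These motifs contain CpG to different degrees, so their shares were also read within classes of the CpG ratio. At a ratio of 0.8 or more, ETS matches were in 1.43% of 699 promoters without a peak and 7.22% of 4821 with a peak. NRF1 matches were in 1.86% and 6.78% of the same classes, YY1 matches in 1.29% and 4.98%, and TATA matches in 6.58% and 3.15%. The differences of these motifs were therefore also present among promoters of high CpG ratio. At the same ratio, CCAAT matches were in 24.9% without and 32.5% with a peak, with intervals apart. GC box matches were in 86.3% and 87.8%, and CREB motif matches in 2.58% and 3.71%. E-box matches were in 8.15% and 10.9%, and ZBTB33 matches in 1.29% and 2.53%. For the GC box, CREB, E-box and ZBTB33 motifs the intervals overlapped in this class. Under a ratio of 0.6, ETS matches were in 0.188% without and 1.7% with a peak. For 4 other motifs that were less frequent in the members as a whole, the share without a peak was the higher one in this class. There NRF1 matches were in 1.32% without and 0.929% with a peak, YY1 matches in 1.13% and 0.774%, CREB motif matches in 1.13% and 0.464% and E-box matches in 9.21% and 6.66%. The intervals without and with a peak overlapped for each of these 5 motifs in this class. GC box matches were in 57.1% (52.8 to 61.4%) without and 66.3% (62.5 to 69.9%) with a peak, with intervals apart. TATA, REST and CTCF matches were more frequent without a peak here, as they were over all members, but the intervals overlapped for each. TATA matches were in 9.02% (6.73 to 11.8%) without and 5.42% (3.8 to 7.45%) with a peak.

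Read the other way, 2.74% (1.63 to 4.29%) of the 658 GC-rich promoters with an ETS match lacked a peak, 4.94% of those with a YY1 match, 6.16% of those with an NRF1 match and 34.1% (29.5 to 38.8%) of the 417 with a TATA match, beside 18.5% of all. With none of the NRF1, ETS, YY1, CCAAT and CREB motifs, 23.1% of 6090 promoters lacked a peak. With 1 of them 13.7% did, and with 2 or more 4.21% (2.82 to 6.03%) of 665 did. At a CpG ratio under 0.6, 45.2% of 857 promoters with none and 45.8% of 308 with 1 of these motifs lacked a peak, and with 2 or more 30.8% (9.09 to 61.4%) of 13 did, too few to place. A match is a stretch of letters and not a bound site.

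**Figure D2:**
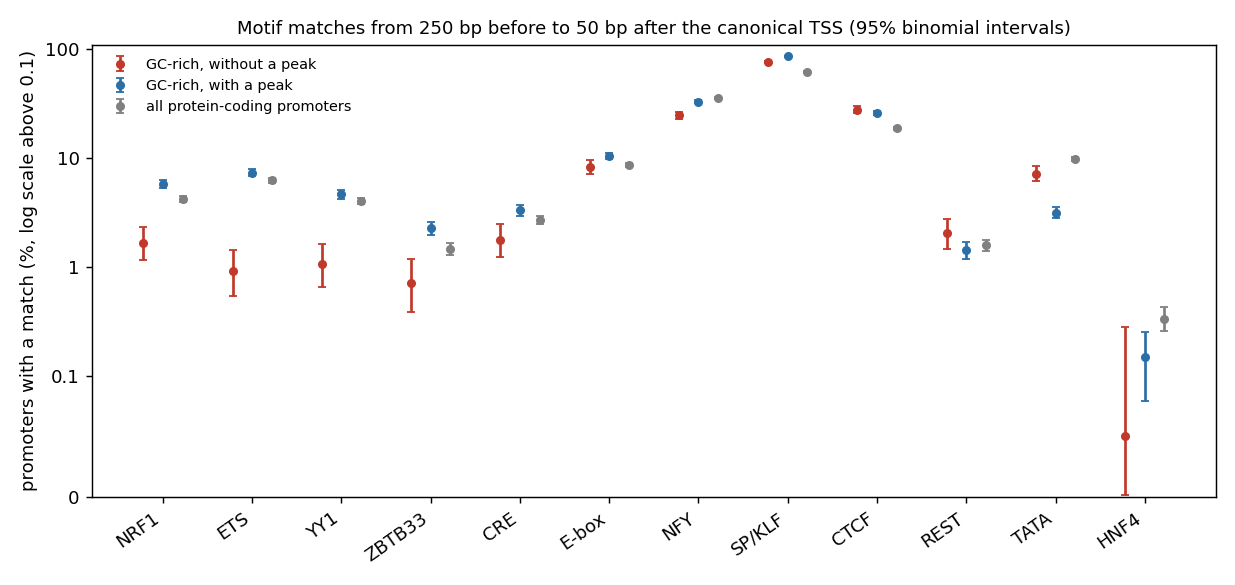
Share of promoters with a match to each motif (y axis, %, log scale above 0.1), for GC-rich promoters without a peak, GC-rich promoters with a peak and all protein-coding promoters, with 95% binomial intervals. ETS matches were in 0.913% without and 7.36% with a peak, and TATA matches in 7.2% without and 3.16% with a peak.

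The members were then described by the roles of their genes, with 31 gene lists. The lists overlap, so a gene can count under several of them. Lacking a peak is what chose the members, so each count is a description beside the 18.5% of all GC-rich promoters. Of 1352 GC-rich genes in any list, 491 lacked a peak (36.3%), and of 9319 in no list, 1480 did (15.9%). The share was above 18.5% in 23 of the 31 lists. Among these, the interval included 18.5% for EPH and NTRK kinase receptors (13.2 to 48.7%), imprinted genes (17.4 to 50.5%) and protocadherins (9.43 to 99.2%).

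Transcription factors of development were frequent among the members. Over the HOX, other homeobox, SOX and T-box, forkhead and bHLH lists, 124 of 225 GC-rich promoters lacked a peak (55.1%, 48.4 to 61.7%). In contrast, 32 of 262 promoters of KRAB and other zinc finger genes did (12.2%, 8.51 to 16.8%), a large family whose KRAB members repress transposable elements. The developmental members were CpG-rich, with a median CpG ratio of 0.816 in the other homeobox list and 0.84 in the bHLH list.

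HOX genes specify position along the body axis, and 11 of 19 GC-rich ones lacked a peak. HOXD8, HOXD9, HOXD11, HOXD12 and HOXD13 belonged to a run of 9 neighbouring genes without a peak on chromosome 2, from 176083962 to 176157307. HOXD9 was 11257 bp and HOXD8 10875 bp from the nearest peak, whereas HOXD12 was 1977 bp and HOXA3 1538 bp from it. Of the 11 members, 9 had a peak between 1 and 10 kb of the TSS, so most lay close to called peaks.

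Of the other homeobox genes, 63 of 109 lacked a peak, including LHX1, LHX2, LHX3, LHX4, LHX5, LMX1A, LMX1B and ISL1, LIM homeobox factors of neurons, limbs and other organs. Those farthest from a peak were IRX1, the motor neuron and pancreas factor ISL1 at 241892 bp and the craniofacial factor ALX1 at 222606 bp. The retinal factor POU4F2 was close to one, at 1760 bp. Homeobox genes of liver were on the other side, since HHEX, ONECUT1 and ONECUT2 had a peak.

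SOX and T-box factors direct cell fate in many lineages, and 10 of 22 lacked a peak. SOX11, a factor of immature neurons, was 326253 bp and TBX20, a heart factor, 216013 bp from the nearest peak, while the neural factor SOX21 was 1080 bp and the hindlimb factor TBX4 2626 bp from it. SOX9, which marks bile duct cells and cartilage, had a peak. Of forkhead genes, 18 of 38 lacked a peak. FOXI2 at 116911 bp and FOXB1 at 74989 bp were the farthest, and FOXS1 was the closest at 1064 bp. The liver factors FOXA1, FOXA2 and FOXA3 and the widely expressed FOXK1, FOXK2 and FOXO3 had a peak.

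Proneural and tissue bHLH factors start neuronal and other programmes of differentiation, and 22 of 37 lacked a peak. TWIST1, a factor of mesoderm, lies on the minus strand of chromosome 7 with its TSS at 19117636, and its nearest peak began 591354 bp away, from 19708990 to 19709240 with a fold of 25.1. The endocrine pancreas factor NEUROG3 was 56704 bp from a peak. ASCL2, a factor of placenta and intestinal stem cells, was 1456 bp and HES7, a factor of the segmentation clock, 1562 bp from one. The neural genes NEUROG1, NEUROG2, NEUROD2, OLIG1 and OLIG2 were also members.

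Signalling ligands came next. Of GC-rich WNT, FGF, BMP and GDF ligands, 29 of 47 lacked a peak (61.7%, 46.4 to 75.5%), including 11 of the 15 WNT genes, and with a window of 2500 bp the share was 38.3%. WNT2 was 109829 bp and WNT4, a factor of kidney and the female reproductive tract, 90347 bp from the nearest peak. WNT9A was 1024 bp from a peak of fold 17.7 on the gene side of its start, and WNT11 was 1148 bp from one. Of neuropeptide and hormone genes, 17 of 34 lacked a peak, among them AVP, OXT, NPY, POMC and TRH, which encode hormones and peptides of hypothalamus and pituitary. NMU, the peptide neuromedin U, was 82585 bp from a peak, and CALCB, a calcitonin gene-related peptide, was 1158 bp from one.

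Of the GC-rich receptor genes, 62 lacked a peak (42.5%, 34.3 to 50.9%). For receptors of neurotransmitters and neuropeptides the count was 35 of 70, with CHRM3, a muscarinic acetylcholine receptor, at 511692 bp and the glutamate receptor GRM7 at 370191 bp from the nearest peak. GALR2, a galanin receptor, was the closest at 2085 bp. Of orphan and adhesion receptors coupled to G proteins, 19 of 48 lacked a peak, and of EPH, NTRK and other kinase receptors 8 of 28. KDR, the main VEGF receptor of endothelium, was 187007 bp from a peak, and FGFR1, FGFR2, FGFR3 and FGFR4 all had a peak.

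Ion channels lacked a peak in 72 of 135 cases (53.3%, 44.6 to 62%). The count was 40 of 71 for potassium channels, 12 of 29 for sodium and calcium channels and 20 of 35 for ligand-gated channels. KCNK1 was 319282 bp and the neuronal channel KCNA4 275629 bp from the nearest peak, while KCNH8 was 1126 bp and KCNK13 1231 bp from it. ASIC2, an acid-sensing channel of neurons, was 278275 bp from a peak. Their median distance to a peak was 14287 bp, above the 11297 bp of transcription factors.

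Adhesion genes lacked a peak in 47 of 109 cases (43.1%, 33.7 to 53.0%), with 37 of 91 in the list of synapse adhesion and vesicle genes. RIMS1, a scaffold of the presynaptic active zone, was 396635 bp and the netrin receptor UNC5C 327995 bp from a peak. Of cadherins, 8 of 15 lacked a peak. CDH1, which encodes E-cadherin of epithelial junctions, had no peak in its windows, a peak of fold 7.65 at 2692 bp upstream and 8 peaks in its gene body. PCDHAC1 and PCDHAC2 lacked a peak and PCDH1 had one, and these were the 3 GC-rich genes of the protocadherin list.

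Of matrix genes, 34 of 62 lacked a peak (54.8%, 41.7 to 67.5%). In the collagen, laminin and ADAMTS list the count was 26 of 51, with the paired basement membrane genes COL4A1 and COL4A2 among the members. ADAMTS1, a secreted protease of matrix proteoglycans, was 674480 bp from the nearest peak, and COL26A1 was 1154 bp from one. Of keratins, the intermediate filaments of epithelia, 8 of 11 lacked a peak. KRT7, KRT9, KRT14, KRT16, KRT17, KRT72, KRT79 and KRT80 had none, whereas KRT8, KRT18 and KRT19 had peaks with highest folds of 14.4, 10.6 and 18.8. The median CpG ratio of the 8 was 0.355, and in KRT14, KRT16 and KRT17 between 17.9 and 23.1% of the words were repeated elsewhere in the genome.

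Germ line genes, which serve meiosis, transposon silencing and pluripotency, lacked a peak in 19 of 32 cases (59.4%, 40.6 to 76.3%). PIWIL1 was the farthest from a peak, followed by SOHLH1, a factor of early germ cells, at 105127 bp. The meiosis gene MEIOB was 1146 bp and LIN28A, which blocks let-7 maturation, 2024 bp from a peak. DAZL, an RNA-binding protein of germ cells, was 54333 bp from one. The median CpG ratio of the 19 was 0.708, beside 0.744 for all members.

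Genes whose promoters are known to be methylated in tumours lacked a peak in 19 of 44 cases (43.2%, 28.3 to 59%), all with a CpG ratio of at least 0.6. GSTP1, a glutathione transferase, lies on the plus strand of chromosome 11 with its TSS at 67583812, and its nearest peak had a fold of 5.99 and lay 2137 bp upstream. The WNT antagonists SFRP1, SFRP2, SFRP5, WIF1 and DKK3 were all members, and SFRP4 had a peak. HHIP, an inhibitor of hedgehog signalling, was 122822 bp and the kinase gene SYK 113187 bp from a peak. RUNX3, a factor of T cells and gut epithelium, was 2038 bp from one. DNA methylation was not measured here.

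Imprinted genes, which are expressed from the copy of 1 parent, lacked a peak in 11 of 34 cases (32.4%, 17.4 to 50.5%). Their nearest peaks were close, with a median distance of 3188 bp beside 11997 bp for all members. NNAT, a membrane protein of brain, was 1401 bp and the placental growth inhibitor PHLDA2 1430 bp from a peak upstream. KCNQ1 was 24064 bp from a peak and had 18 peaks in its gene body.

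Genes of other tissues were mostly of the CpG-poor kind. Of blood cell genes, 17 of 31 lacked a peak, with a median CpG ratio of 0.497, and of muscle genes 9 of 19, with 0.402. ZAP70, a kinase of the T cell receptor, had a ratio of 0.26 and SPI1, the myeloid factor PU.1, a ratio of 0.29. IKZF1, a lymphoid factor with a ratio of 0.95, differed from these and was 99805 bp from the nearest peak. The muscle creatine kinase gene CKM had a ratio of 0.29, the troponin gene TNNI2 a ratio of 0.37 and a peak at 1022 bp, and the cardiac splicing factor RBM20 a ratio of 0.82. With the canonical TSS alone, 73.7% of the muscle genes lacked a peak.

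Liver genes were rarely members, with 5 of 80 (6.25%, 2.06 to 14.0%). The plasma protein genes without a peak were FGF19, a hormone that restrains bile acid synthesis, and ANGPTL4, an inhibitor of lipoprotein lipase. A peak of fold 9.49 lay 1416 bp from the TSS of FGF19, and a peak of fold 10.9 lay 1997 bp from that of ANGPTL4. Both promoters were therefore members by a short distance, and with a window of 2500 bp 0 of 16 plasma protein genes lacked a peak. FBP1, an enzyme of gluconeogenesis, was 15966 bp and BHMT, which remethylates homocysteine, 10332 bp from the nearest peak.

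Genes that all cells use were also rarely members, with 6 of 123 (4.88%, 1.81 to 10.3%). None of 18 proteasome genes and none of 40 genes of tRNA synthetases and the mitochondrial ribosome lacked a peak, where the intervals reach 18.5 and 8.81%. The 6 members were RPL39L and RPL3L of the ribosome list and COX4I2, COX6B2, COX7A1 and COX8C of the respiratory list. Each is a variant subunit of restricted expression, with COX6B2 and RPL39L known from testis and RPL3L and COX7A1 from muscle. Their broadly expressed relatives COX4I1 and COX8A had a peak. RPL3L had a CpG ratio of 0.17 and lay 4683 bp from a peak.

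**Figure D3:**
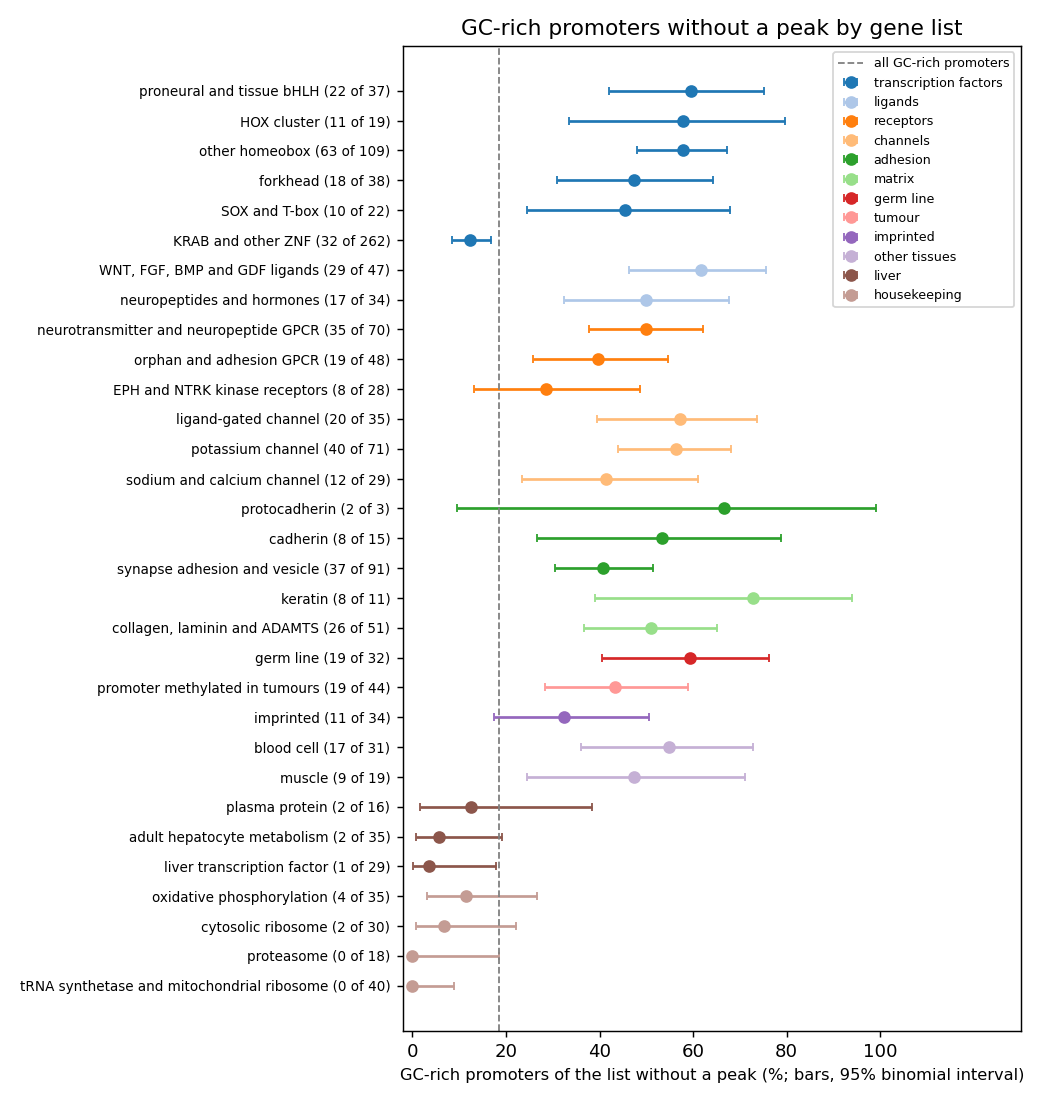
Share of GC-rich promoters without a peak in each of 31 gene lists (x axis, %; points with 95% binomial intervals, coloured by role; counts in brackets), with a dashed line at 18.5% for all GC-rich promoters. The share was above the line in 23 lists and below it in zinc finger, liver and housekeeping lists.

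The surroundings of the members were read from peaks that the rule did not use. The nearest peak lay at a median of 11997 bp from the canonical TSS (quartiles 4782 and 37804 bp), with a median fold of 10.5 (7.66 and 15.1). For promoters with a peak, the highest fold over all starts of the gene had a median of 17.8 (13.3 and 22.3). That is a maximum over all peaks at these starts, whereas the nearest peak is a single peak, so the 2 measures are not alike. The nearest peak was at 1 to 2.5 kb in 236 members (12%), at 2.5 to 10 kb in 31.9%, at 10 to 50 kb in 35.7%, at 50 to 250 kb in 17.3% and beyond 250 kb in 62 (3.15%). The nearest peak lay at the start of another protein-coding gene in 397 members (20.1%).

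CpG-poor and CpG-rich members differed in this distance. The median was 7610 bp at a CpG ratio under 0.6 and 15966 bp at 0.6 or more. CpG-poor members lay in denser regions, with a median of 27 peaks within 250 kb outside their own windows and 15088 bp to the next protein-coding TSS. CpG-rich members had 14 peaks and 55803 bp. Promoters with a peak were ordered in the same way, with 30 peaks and 14043 bp at a CpG ratio under 0.6 and 21 peaks and 28885 bp at 0.6 or more. The whole set of members had 18 peaks and 37917 bp, and GC-rich promoters with a peak had 21 peaks and 26749 bp.

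The members farthest from any peak on the autosomes were TUSC3 at 1034967 bp, which takes part in protein glycosylation and magnesium uptake, HS3ST1 at 967388 bp, a heparan sulfate sulfotransferase, NRG3 at 950611 bp, a neuregulin of brain, MMP16 at 891091 bp, a membrane-bound matrix metalloproteinase, and CSMD1 at 890902 bp, a complement regulator. At the other end, RASSF10 was 1009 bp, TNNI2 1022 bp, WNT9A 1024 bp, NKAIN2 1034 bp and PLA2G7 1036 bp from a peak. Measured from any annotated start, 98 members had a peak within 250 bp beyond the window, and 103 promoters with a peak had theirs only in the outer 250 bp of it. CYGB at 1004 bp was just outside and ANKRD34C at 998 bp just inside. At the GC limit, 162 promoters without and 573 with a peak had 60 to 61% GC, and 186 without and 550 with a peak had 59 to 60%.

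**Figure D4:**
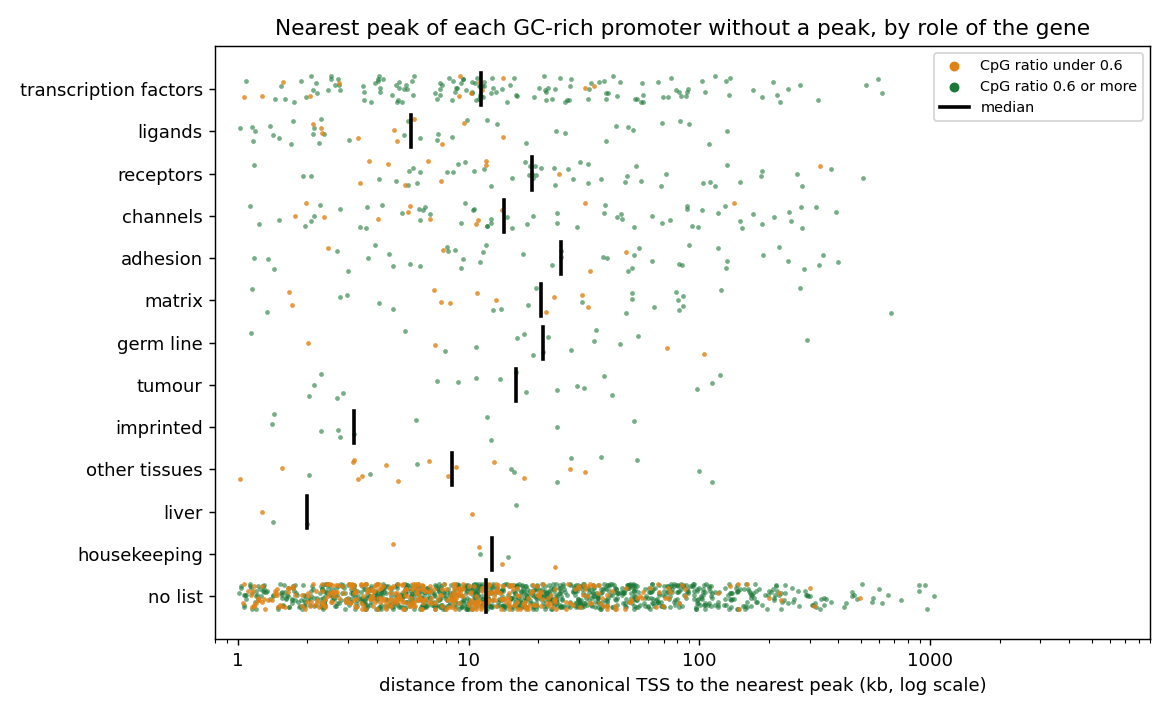
Distance from the canonical TSS to the nearest peak (x axis, kb, log scale) for each GC-rich promoter without a peak, by role of the gene, with CpG-poor and CpG-rich members in separate colours and the median as a bar. Medians were 3188 bp for imprinted, 11297 bp for transcription factor and 25027 bp for adhesion genes, and CpG-poor genes were 15 of the 26 points under other tissues.

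Peaks outside the windows were compared between promoters without and with a peak, leaving out each gene's own windows in both. Between 1 and 5 kb, 26.6% (24.6 to 28.6%) of members had a peak, against 20.1% (19.3 to 20.9%) of promoters with a peak. Between 1 and 10 kb the shares were 43.9% (41.7 to 46.1%) and 45.8% (44.7 to 46.8%), and between 1 and 50 kb 79.6% and 92.5%. The direction thus depended on the range. Genes with many starts lose more of their surroundings to their own windows, so the shares were also taken for genes whose starts all lie within 500 bp. There they were 34.9% of 722 members and 23.9% of 1424 promoters with a peak between 1 and 5 kb, and 53.0% and 51.5% between 1 and 10 kb.

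Along the strand, the members had 0.0533 peak summits per promoter in the kilobase centred 2.5 kb upstream of the TSS, against 0.0397 for promoters with a peak. At 2.5 kb downstream the values were 0.036 and 0.0362, and at 49.5 kb upstream they were 0.0411 and 0.0503. The members had more summits also at 3.5 kb upstream, with 0.0497 against 0.0366, and by a smaller margin at 3.5 kb downstream, with 0.0375 against 0.0324. At 1.5 kb the members had fewer on both sides, with 0.0406 against 0.0726 upstream and 0.0304 against 0.0687 downstream. Unlike the shares above, these counts did not leave out each gene's own windows. Promoters with a peak can thus keep peaks at their other starts, which the rule bars for members. The lower values of the members at 1.5 kb, and in part those farther out, are therefore shaped by the rule. Whether the peaks near the members belong to the same genes was not tested. No peak at all within 250 kb outside the own windows was seen for 62 members (3.15%, 2.42 to 4.01%) and 28 promoters with a peak (0.322%, 0.214 to 0.465%).

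**Figure D5:**
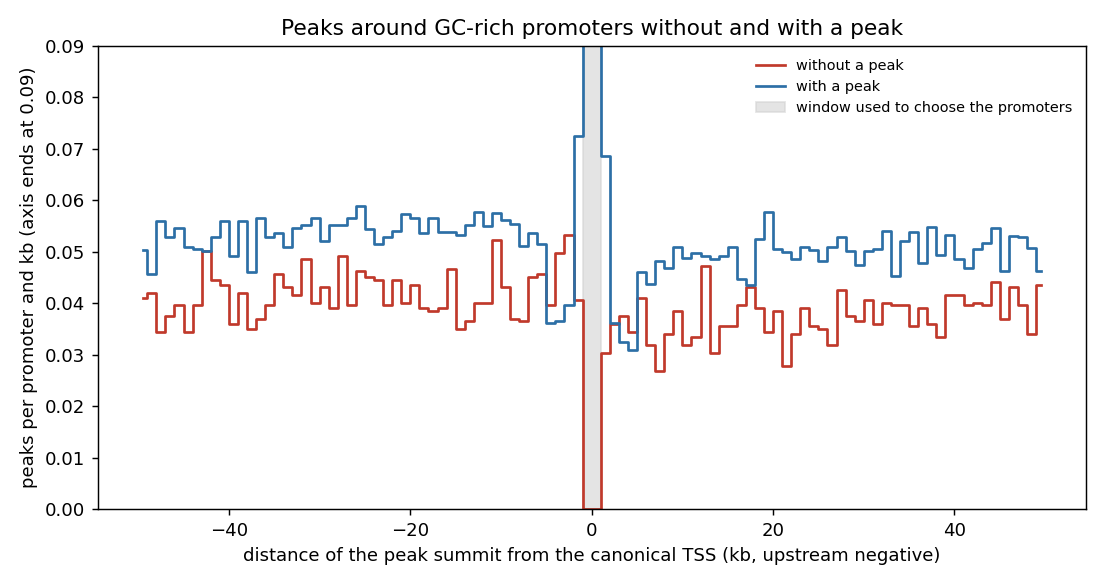
Peak summits per promoter and kb (y axis, ends at 0.09) by distance from the canonical TSS (x axis, kb, upstream negative) for GC-rich promoters without and with a peak; the grey band is the window that chose the members. Without a peak the value was 0.0533 at 2.5 kb upstream and 0.0411 at 49.5 kb upstream, against 0.0397 and 0.0503 with a peak. Peaks at other starts of the same gene were counted, and the rule bars these for members.

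Gene bodies of the members were not free of peaks. Outside the windows of all starts, 41.8% (39.6 to 44%) of members and 53.6% (52.6 to 54.7%) of genes with a peak had a peak in the gene body. Members were shorter, with a median of 23.1 kb and 35.2 kb for genes with a peak, so the shares were taken by length. They were 10.5% and 10.9% under 10 kb, 38.2% and 37.5% between 10 and 30 kb and 61.7% and 66.1% between 30 and 100 kb. Only from 100 kb upwards were they clearly apart, at 74.3% (69.7 to 78.5%) and 90.5% (89.0 to 91.8%).

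Most members lay beside a gene with a peak, but less often than promoters with a peak did. Of all protein-coding promoters on these chromosomes, 31.9% lacked a peak. The nearest other protein-coding gene had a peak at a start for 59.7% (57.5 to 61.8%) of members and 80.3% (79.5 to 81.1%) of promoters with a peak. Close neighbours can share a peak or a window, and for neighbours over 10 kb away the shares were 63.1% (60.7 to 65.5%) and 76.2% (75.1 to 77.2%). A start of a noncoding gene lay within 1000 bp of 17.0% of members and 23.3% of promoters with a peak.

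Among all protein-coding genes in chromosomal order, the members fell into 1488 runs of genes without a peak, with 810 members alone in theirs and 252 in runs of at least 5 genes. Runs were ranked by the number of GC-rich members. The first, on chromosome 21 from 44540195 to 44711572, held 8 members among 17 genes, namely KRTAP10 genes of hair keratin-associated proteins and TSPEAR. The second, on chromosome 19 from 50983917 to 51082887, held 7 members among 9 genes, 6 of them kallikreins, secreted proteases of skin and glands. KRTAP10-1, KLK7 and KLK10 were CpG-poor, with ratios of 0.29, 0.38 and 0.48. The ratios of the other members of these runs are not given here.

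Another run, on chromosome 11 from 2149603 to 2377310, held INS, INS-IGF2, TH, ASCL2, C11orf21, TSPAN32 and CD81 among 8 genes. INS encodes insulin, with a CpG ratio of 0.20 and a peak at 4503 bp, and TH encodes tyrosine hydroxylase of catecholamine synthesis, with a ratio of 0.37 and a peak at 15002 bp. CD81, a widely expressed tetraspanin and entry receptor of hepatitis C virus, had a ratio of 0.77, 17 annotated starts and no peak closer than 22945 bp. INS and INS-IGF2 share sequence and are not independent. On chromosome 9 a run from 135521440 to 135702185 held 7 members among 8 genes, from the lipocalins LCN1, OBP2A and PAEP to the germ cell factor SOHLH1 and the potassium channel KCNT1. On chromosome 16, CACNA1H stood in a run of 6 genes with C1QTNF8 and the mast cell tryptases TPSG1, TPSB2, TPSAB1 and TPSD1. In TPSB2 and TPSAB1, 71.8 and 79.5% of the words were repeated, so the lack of a peak there is uncertain.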

How the data were processed

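ATAC-seq peaks were analysed for the cryopreserved HepG2 library fixed with 0.1% FA, 1 of 8 libraries of the bulk experiment, with 1 library per condition; the other 7 were left out. The methods state that snakePipes was used, with cutadapt for trimming, Bowtie2 for mapping to GRCh38, a limit to uniquely mapped pairs and removal of duplicates, and that peaks were called with MACS2 at standard settings. The submitters' processing notes also name bcl2fastq and deepTools 3.5.5, and no version of MACS2 could be taken from the sources. The deposited columns of a peak are a score, a fold enrichment ratio over the local background, and -log10 p and -log10 q values at the summit. The score and the -log10 p values were not used, and the fold and -log10 q only described or filtered peaks.

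GC and CpG content were read from hg38 in the 500 bp to either side of the canonical TSS of GENCODE 44, the expected number of CpG being the product of C and G counts over the length. Words of 50 bp were taken at steps of 25 bp and looked up in the whole of hg38, either strand. Counting of planted words was tested on simulated data before use. Motifs were exact matches on both strands. The members, gene lists and motifs were chosen with earlier results of these data known. Named genes are, in each list, up to 3 members farthest from and 2 closest to a peak and all members or all others where at most 5, as well as members of highest GC, closest and farthest peaks and the runs with most members, all liver genes among the members and the promoters of highest fold. Other genes were named after their values were seen. Some genes and 1 motif that meet these rules are not reported here. Scripts ran in Python 3.11.15 with scipy 1.17.1, pandas 2.3.3, numpy 2.4.6, numba and matplotlib. Alternatives were windows of 500 and 2500 bp, the canonical TSS alone, summits, stricter -log10 q limits, GC limits of 55 and 65%, other GC windows and other motif windows.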

Additional observations from a re-analysis of the deposited data

How the results depend on the processing

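The number and share of GC-rich promoters without a peak depended on the limits. The share, 18.5%, was 20.8% with a 500 bp window, 14.9% with 2500 bp, 23.1% with the canonical TSS alone, 22.1% with a -log10 q of at least 10, 20.7% with a GC limit of 55% and 20.9% with GC over 1000 bp to either side. With a GC limit of 65% there were 1149 (16.9%), with GC over 1000 bp 1302, and with a -log10 q of at least 20, chosen after seeing the data, 3347 (31.4%). Stricter q limits add promoters with weak peaks by construction: 45 promoters with a peak had a highest -log10 q under 5 and 387 under 10.

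The median CpG ratio without a peak was 0.67 at a GC limit of 55%, 0.799 at 65%, 0.621 between 60 and 65% GC and 0.847 from 70% upwards, each below the value with a peak (0.798, 0.844, 0.76 and 0.871). The difference in peaks at 1 to 10 kb, without minus with a peak, was -1.9 percentage points, and -13.7 with a 2500 bp window, where peaks up to 2500 bp are barred by construction. It was 6.5 at 1 to 5 kb, -12.9 at 1 to 50 kb and 1.5 for genes whose starts all lie within 500 bp, a choice made after seeing the data. Within both CpG classes of these last genes, the members had the lower share. The difference in neighbours with a peak, -20.6 points, was -20.4, -20.5, -20.8, -20.1 and -24.0 with windows of 500 and 2500 bp, the canonical TSS, a -log10 q of at least 10 and a GC limit of 55%, and -13.1 for neighbours over 10 kb away. The share was above that of all GC-rich promoters in 23 of 31 lists under each of 8 alternatives, but at a GC limit of 65% protocadherins (0 of 1) dropped below it and plasma protein genes (2 of 7, 28.6%) moved above it. Of the alternative list values, 236 stayed within the interval of the main value and 12 did not. With other motif windows, the differences of the motifs named here changed in size and none of them changed sign.

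With 1 library, there is no spread between libraries, fixations or preservation methods, and the depth behind a missing peak is unknown. No paired analysis was possible because a single library was analysed and no test was made.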

Other observations

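Outside the 31 lists, some families shared a symbol stem, and they were chosen after their values were seen. Of GC-rich kallikrein (KLK) genes 7 of 8 lacked a peak, as did 7 of 8 hair keratin-associated (KRTAP) genes, 7 of 8 SHISA genes of transmembrane adaptors and 7 of 12 PRSS serine protease genes. Of PRR genes, named only for their proline-rich products, 8 of 17 lacked a peak. Large mixed families were closer to the 18.5% of all GC-rich promoters, with 48 of 225 solute carrier (SLC) genes and 31 of 149 TMEM genes. Genes known only by an Ensembl identifier lacked a peak in 49 of 232 cases.

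By chromosome, the share of GC-rich promoters without a peak was highest on chromosome 21, with 30 of 122 (24.6%), and chromosome 22, with 77 of 326 (23.6%), and lowest on chromosome 14, with 47 of 326 (14.4%), and chromosome 7, with 84 of 538 (15.6%). On chromosome 21, 8 of the 30 belonged to the run of KRTAP10 genes and TSPEAR. The number of copies of each chromosome was not measured here.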
